A study of Mus musculus with 18 samples.

Results

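Aminoacyl-tRNA synthetases join each amino acid to its transfer RNA, the step that supplies the ribosome. Cytosolic and mitochondrial translation mostly use enzymes from separate nuclear genes, and mouse mitochondrial enzymes carry a 2 at the end of their symbol. The genes were taken by symbol from a fixed list, and all 36 listed symbols were found among the 12019 genes of the authors' deposited table: 20 cytosolic enzymes or subunits and 16 mitochondrial enzymes. Genes were matched by symbol alone, but the list was made with earlier results of these data known. The rule set Lars2 apart for its measured values.

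Liver RNA came from C57BL/6J mice after 8 weeks of intervention that began at 21 weeks of age. Ad libitum feeding served as control with 6 labelled libraries, and every intervention has 3, for 18 in all. The interventions were caloric restriction by 30% and, in the chow, TM5614 (20 mg/kg/day), metformin (37.5 mg/kg/day) or rapamycin (42 mg/kg/day). Rapamycin inhibits the growth kinase mTOR, metformin is a glucose-lowering biguanide and TM5614 is an inhibitor of plasminogen activator inhibitor-1. The labels give neither sex, batch nor hour of collection, and the design text counts 30 mice where the labels list 18 libraries.

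Values are group means of normalized counts (gene counts divided by a size factor per library), adjusted p-values and log2 fold changes relative to ad libitum feeding, all from the authors' deposited table. No value per library entered, so no SD can be given, and the spread between mice enters through the authors' adjusted p alone. A gene is said to have risen or fallen when that adjusted p was under 0.05. The smallest means above 0 took 3 distinct values in every group, the control included (0.315 to 0.350 there), which is the pattern of means over 3 libraries, while the labels list 6 controls. Which control libraries entered is not known. The hepatocyte markers Alb, Apoa1, Ttr, Serpina1a, Cps1 and Tat were present in all 5 groups, with summed means of 735447 to 1041050 normalized counts. The sum was highest under caloric restriction. There Alb rose (log2 fold change 0.50, adjusted p = 1.7e-05), Ttr fell (-0.34, adjusted p = 0.0274) and the other 4 did not pass.

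The cytosol needs these enzymes for every protein the hepatocyte makes, including the plasma proteins that it secretes in bulk. A subset of them assembles with scaffold proteins into the multisynthetase complex, here taken as Eprs, Iars, Lars, Mars, Qars, Rars, Kars and Dars. Many cytosolic synthetase genes are known targets of ATF4, the transcription factor induced when amino acids run short or the endoplasmic reticulum is stressed, and Wars is also induced by interferon. The mitochondrial enzymes serve the few proteins encoded by mitochondrial DNA, all of them parts of oxidative phosphorylation. Gars and Kars serve both compartments from a single gene and are counted as cytosolic.

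In freely fed liver the cytosolic genes were the more abundant class. Per kilobase of annotated exon, the level of the 20 cytosolic genes in the control had a median of 82.1 normalized counts and ranged from 32.7 (Farsa) to 258 (Nars), from the group means of the authors' deposited table. Tars stood at 229 and Aars at 221 on this scale in the authors' deposited table. The 15 mitochondrial genes other than Lars2 had a median level of 28.0 per kilobase and ranged from 2.25 (Mars2) to 60.9 (Iars2) in the authors' deposited table. The exon lengths are those of GENCODE, since the annotation behind the counts is not given, so this order is approximate.

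Caloric restriction lowered 10 of the 36 synthetase genes and raised none. Those that fell were 8 cytosolic genes (Farsb, Cars, Tars, Lars, Mars, Yars, Dars and Nars) and 2 mitochondrial genes (Sars2 and Tars2), with restricted means at 56.8% to 81.0% of the control means in the authors' deposited table. The share of members that fell was 27.8%, beside 9.24% of the 11760 genes with an adjusted p that were called lower and 9.74% that were called higher. With a minimum of 100 for the mean over all groups, 9 of 29 members fell, beside 10.9% of all such genes called lower and 13.7% called higher. Of the 36 log2 fold changes 27 were below 0, while 48.8% of all genes in the table were. The median log2 fold change was -0.18 for the cytosolic genes and -0.22 for the mitochondrial genes without Lars2, beside 0.01 for all genes.

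**Figure D1:**
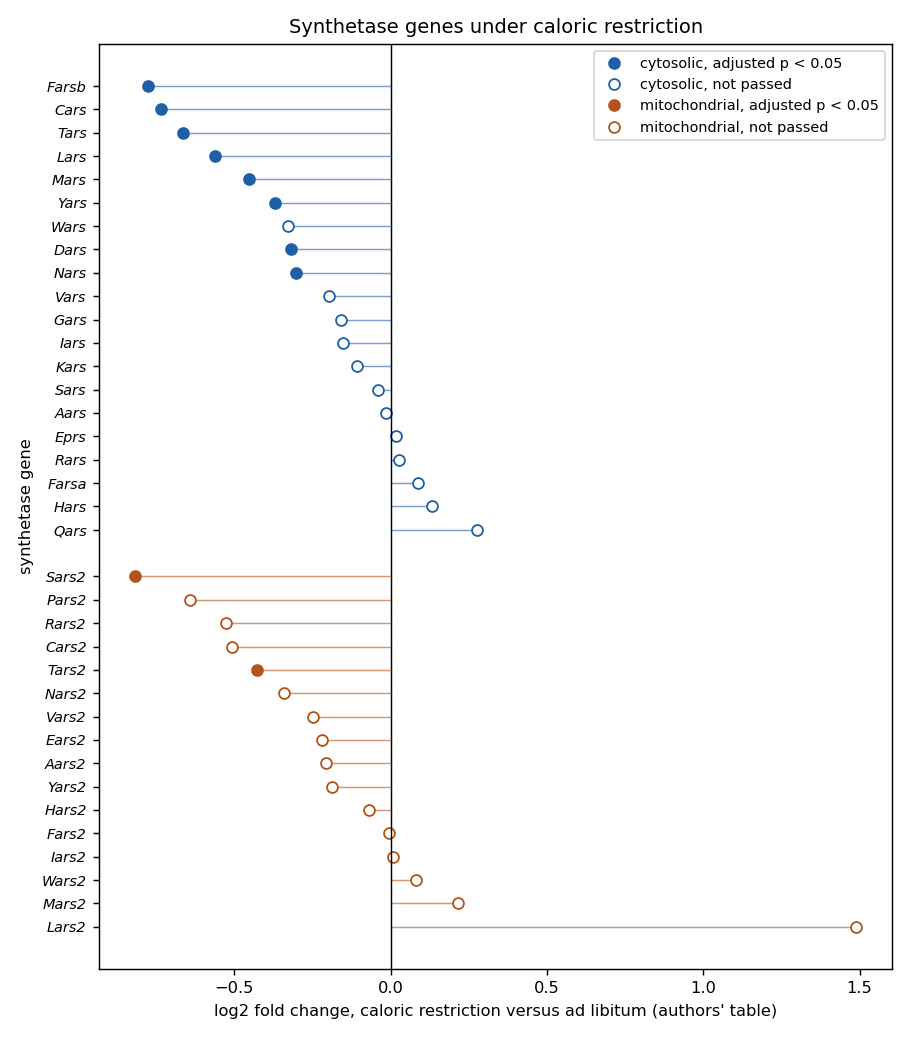
Log2 fold change under caloric restriction against ad libitum feeding for each of the 36 synthetase genes, from the authors' deposited table, with cytosolic genes above and mitochondrial genes below. Filled points have an adjusted p under 0.05; all 10 filled points lie left of 0, from -0.82 (Sars2) to -0.30 (Nars), and Lars2 lies apart at 1.49 without passing.

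Farsb, which encodes the beta subunit of the cytosolic phenylalanine enzyme, had the smallest adjusted p of the members. Its group means in the authors' deposited table were 235 in the control, 137 under caloric restriction, 246 under rapamycin, 245 under metformin and 253 under TM5614. The restricted mean alone lay apart, and the other 4 means lay within a narrow band. The log2 fold change of Farsb under restriction in the authors' deposited table was -0.78 (adjusted p = 2.55e-06). Farsa, the alpha subunit that pairs with it in the same enzyme, averaged 148 in freely fed mice and 157 under restriction in the authors' deposited table (restriction against control: log2 fold change 0.09, adjusted p = 0.768). Whether the subunits differ in their response was not tested.

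Cars, the cysteine enzyme, and Tars, the threonine enzyme, followed among the cytosolic genes. Cars had means of 341 in the control, 205 under restriction, 400 under rapamycin, 364 under metformin and 325 under TM5614 in the authors' deposited table (restriction against control: log2 fold change -0.73, adjusted p = 0.00153). Tars had 1351 in the control, 853 under restriction, 1792 under rapamycin, 1204 under metformin and 1033 under TM5614 in the authors' deposited table (restriction against control: log2 fold change -0.66, adjusted p = 0.00362). Tars thus had its lowest mean under restriction and its highest under rapamycin, a 2.10-fold span that was the widest among the cytosolic genes. In the authors' deposited table its rapamycin value had an adjusted p of 0.332, and the difference between rapamycin and restriction was not tested.

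Within the multisynthetase complex 3 of 8 genes fell. Lars, the leucine enzyme, averaged 278 in freely fed and 188 in restricted mice in the authors' deposited table (restriction against control: log2 fold change -0.56, adjusted p = 0.0108). Mars, the methionine enzyme, went from 579 to 423 in the authors' deposited table (restriction against control: log2 fold change -0.45, adjusted p = 0.00713), and Dars, the aspartate enzyme, from 628 to 503 (restriction against control: log2 fold change -0.32, adjusted p = 0.00453). The other 5 did not pass, and their log2 fold changes in the authors' deposited table ran from -0.15 (Iars) through -0.11 (Kars), 0.02 (Eprs) and 0.03 (Rars) to 0.28 (Qars). The scaffolds of the complex, Aimp1, Aimp2 and Eef1e1, did not pass, at log2 fold changes in the authors' deposited table of 0.10, -0.03 and -0.0028 respectively.

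Among the 12 cytosolic enzymes outside the complex 5 genes fell. Besides Farsb, Cars and Tars these were Nars, the asparagine enzyme, in the authors' deposited table from 1125 to 912 normalized counts (restriction against control: log2 fold change -0.30, adjusted p = 0.00319), and Yars, the tyrosine enzyme, from 308 to 239 (restriction against control: log2 fold change -0.37, adjusted p = 0.0323). Aars, the alanine enzyme, had 2049 in the control and 2029 under restriction in the authors' deposited table (restriction against control: log2 fold change -0.01, adjusted p = 0.944). Wars, the tryptophan enzyme, had a log2 fold change in the authors' deposited table of -0.33 (adjusted p = 0.130), and that of Sars, the serine enzyme, was -0.04 (adjusted p = 0.873). The remaining 4, Gars, Hars, Vars and Farsa, had log2 fold changes between -0.20 and 0.13 in the authors' deposited table and did not pass.

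Of the 15 mitochondrial genes without Lars2, 2 fell, those of the serine and threonine enzymes. This share of 13.3% was near the 9.24% of all genes called lower, while 40.0% of the cytosolic genes fell, and the difference between the classes was not tested. Sars2 had means of 91.1 in the control, 51.8 under restriction, 73.9 under rapamycin, 65.0 under metformin and 64.1 under TM5614 in the authors' deposited table (restriction against control: log2 fold change -0.82, adjusted p = 7.93e-04). All 4 intervention means of Sars2 lay under the control mean; that of restriction passed, those of rapamycin and TM5614 did not, and metformin has no adjusted p. Tars2 had 194 in the control, 144 under restriction, 198 under rapamycin, 215 under metformin and 183 under TM5614 in the authors' deposited table (restriction against control: log2 fold change -0.43, adjusted p = 0.0267). Among the members, threonine was the 1 amino acid whose cytosolic and mitochondrial genes both fell, while for serine the mitochondrial gene fell and the cytosolic gene did not pass.

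Several mitochondrial genes with values below 0 did not pass. Pars2, the proline enzyme, averaged 22.3 in freely fed and 14.3 in restricted mice in the authors' deposited table (restriction against control: log2 fold change -0.64, adjusted p = 0.213). In the authors' deposited table Rars2, the arginine enzyme, stood at -0.53 (adjusted p = 0.0792) and Cars2, the cysteine enzyme, at -0.51 (adjusted p = 0.104). At the other end, Iars2, the isoleucine enzyme, had means of 541 and 544 in the authors' deposited table (restriction against control: log2 fold change 0.01, adjusted p = 0.972), and Fars2, the phenylalanine enzyme, had 246 and 245 (adjusted p = 0.986). The highest mitochondrial values apart from Lars2 were those of Mars2 (0.22) and Wars2 (0.08) in the authors' deposited table, and neither passed.

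Synthetases fall into catalytic class I and class II by the fold of their active site. Both classes held genes that fell under restriction, beside 9.24% of all genes called lower. Among 18 class I genes 4 fell under restriction (Cars, Lars, Mars and Yars) with a median log2 fold change of -0.21 in the authors' deposited table. Among 17 class II genes 6 fell (Dars, Farsb, Nars, Tars, Sars2 and Tars2), with a median of -0.21 as well. Eprs, which joins a domain of each class in a single protein, was set apart and did not pass.

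**Figure D2:**
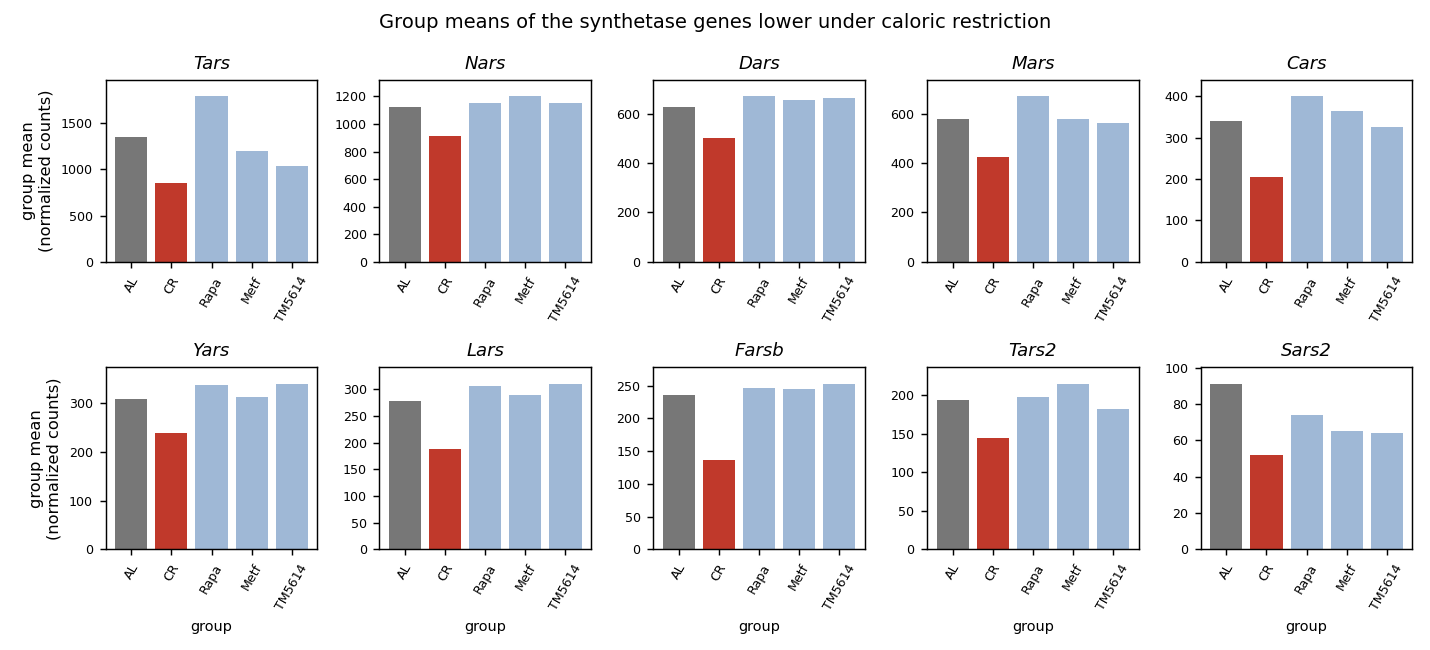
Group means of normalized counts (vertical axes, from 0) for the 10 genes that fell under caloric restriction, in the ad libitum (AL), caloric restriction (CR), rapamycin (Rapa), metformin (Metf) and TM5614 groups, from the authors' deposited table without error bars, since no value per library was used. The restricted mean is the lowest of the 5 for each of the 10 genes, which were chosen for a restricted mean under that of the control.

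The restricted group was also set beside the compound groups. For all 10 genes that fell, the restricted mean was the lowest of the 5 group means in the authors' deposited table, and it lay under the mean of the 3 compound groups. These genes were chosen for a restricted mean under that of the control, so a low rank follows in part from that choice. Over all cytosolic genes the restricted mean was the lowest for 13 of 20, and over the mitochondrial genes without Lars2 for 9 of 15, beside 29.4% of the 6762 genes whose mean reached 100. The mitochondrial count was not filtered by mean and holds genes of lower mean, so the sets are not alike. Scaling each group to its summed means without the ribosomal RNA precursor Rn45s moved all genes alike, by a median log2 shift of -0.10. Calls were not made again under that scaling, so its bearing on them is not known. By that shift 18 of 20 cytosolic genes and 14 of 15 mitochondrial genes without Lars2 lay below 0, beside 15 and 12 with the deposited values. The median over all genes with means above 0 in both groups moved with them, from 0.01 to -0.08. In whole liver, fewer cells of a type and less RNA per cell cannot be told apart.

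Markers of other cell types moved in the same comparison. Cd5l, C1qa, C1qb and C1qc, 4 of the 9 Kupffer cell and macrophage markers with values, fell under restriction, beside 9.24% of all genes called lower. The summed means of those 9 markers in the authors' deposited table were 1944 in the control, 967 under restriction and 1382 to 1538 under the compounds, with none at 0. Lrat, 1 of 7 stellate cell markers, fell as well, while the stellate markers summed to 2111 in the control and 2138 under restriction in the authors' deposited table. No sinusoidal endothelial, cholangiocyte, lymphoid or neutrophil marker passed under restriction, and 2 of the 3 T and NK cell markers had no adjusted p. Pancreatic acinar markers summed in the authors' deposited table to 442 normalized counts in the control (0.00566% of all) and to 2.49 to 4.27 in the intervention groups, where 5 of the 6 markers were listed at 0 throughout. The part of these cells in the synthetase values was not tested. The cytosolic synthetase genes summed in the authors' deposited table to 11382 normalized counts in the control, 9907 under restriction and 11732 to 12599 in the 3 compound groups.

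Reads of overlapping genes cannot be divided where strand is not used in counting, and the strand setting is not given in the sources used here. In GENCODE, 13 of the 36 genes share exon bases with another gene, and 4 of these fell. Farsb shares 248 of 2620 exon bases with Sgpp2, Cars 211 of 6583 with the pseudogene Gm15580, Mars 68 of 3423 with Ddit3, and Yars 30 of 5943 with C77080, each on the opposite strand. Hars and Hars2 lie head to head and share 195 exon bases. Larger overlaps lie at 2 genes that did not fall. Iars2 shares 2034 of 8885 exon bases with Rab3gap2 on the opposite strand. Aars shares 1326 of 9282 with Exosc6 on the same strand, where strand would not divide the reads. The other 6 genes that fell are among the 23 that share none.

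ATF4 binds C/EBP-ATF response elements, and the promoters were searched for TGATGNAA, where N is any base, on both strands. The window ran from 250 bases before to 50 bases after the RefSeq gene start (GRCm38.p6), and 27 of the 36 genes were searched. Cars, Hars, Hars2, Lars, Nars, Pars2, Rars, Vars and Wars were not searched. Of these, Hars, Hars2, Lars and Nars were left out because of the chromosome they share, not for want of a RefSeq start. The counts for members below therefore hold for the searched genes only, while the share for all promoters is over the whole table. The motif letters occurred at 5 of 13 cytosolic genes (Aars, Gars, Iars, Tars and Yars) and at 0 of 14 mitochondrial genes, beside 3.97% of all 32851 promoters of the table and 9 of 26 genes of a list of ATF4 targets and amino acid response genes. Windows of 30 bases around 5 of the matches are given on the strand of the gene, with the motif in capitals. A match on the opposite strand of the gene is printed as the reverse complement of the motif.
Aars, chr8:111033840-111033869, plus strand: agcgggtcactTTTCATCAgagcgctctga
Gars, chr6:55037960-55037989, plus strand: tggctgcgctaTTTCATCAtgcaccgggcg
Iars, chr13:49682126-49682155, plus strand: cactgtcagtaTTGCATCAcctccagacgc
Tars, chr15:11399655-11399684, minus strand: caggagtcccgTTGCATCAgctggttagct
Yars, chr4:129189895-129189924, plus strand: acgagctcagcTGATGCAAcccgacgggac

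Among the printed windows, which do not cover every match, TGATGCAA stood at Iars, Tars and Yars and TGATGAAA at Gars and Aars, each on the opposite strand except at Yars. Of the 7 genes that fell and were searched, 2 held the motif (Tars and Yars), as did 3 of the 20 searched that did not fall. Cars, Lars and Nars also fell but were not searched, so these shares do not cover them. The log2 fold changes of the genes with a match were -0.66 (Tars), -0.37 (Yars), -0.16 (Gars), -0.15 (Iars) and -0.01 (Aars) under restriction in the authors' deposited table, so genes with a match included a marked fall and a mean close to the control. Tars had the lowest value of that range, and the 250 bases before its start are printed to show where the motif lies.
Tars, chr15:11399659-11399908, minus strand: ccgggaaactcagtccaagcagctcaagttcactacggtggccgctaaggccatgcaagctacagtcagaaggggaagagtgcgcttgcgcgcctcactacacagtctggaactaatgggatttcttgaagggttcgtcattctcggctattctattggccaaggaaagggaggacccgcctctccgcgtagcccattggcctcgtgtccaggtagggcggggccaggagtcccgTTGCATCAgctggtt

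Calls in the wider ATF4 and amino acid response list went in both directions under restriction, with more genes higher than lower. Among the 24 genes of that list with values, 4 rose, 1 fell, 18 failed to pass and Ddit3 had no adjusted p. Of all genes 9.74% were called higher and 9.24% lower. The median log2 fold change of the 24 listed genes was 0.38 in the authors' deposited table, beside 0.01 for all genes. Of these 24 values 15 were above 0 and 9 below, while 48.8% of all genes lay below 0. The genes of the list that rose were Sesn2 (0.88), an inhibitor of mTOR complex 1 that senses leucine, Slc3a2 (0.51), the heavy chain of amino acid transporters, the hormone gene Fgf21 (1.90, adjusted p = 0.0497) and the lipoprotein receptor gene Vldlr (1.13) in the authors' deposited table. Atf5, a transcription factor of the same family, fell from 2674 to 1319 in the authors' deposited table (restriction against control: log2 fold change -1.02, adjusted p = 2.19e-11). Atf4 itself stood in the authors' deposited table at 0.43 (adjusted p = 0.229) and Asns, the asparagine synthetase that is a classical target, at -0.57 (adjusted p = 0.725). Other listed genes that did not pass had large values above 0, such as Chac1 (1.81, adjusted p = 0.0587) and Atf3 (1.83, adjusted p = 0.335).

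Among the genes that set phosphorylation of the initiation factor eIF2alpha, 2 of 8 rose under restriction, beside 9.74% of all genes called higher. Eif2ak3, the kinase PERK of the endoplasmic reticulum, increased in the authors' deposited table from 136 to 333 normalized counts (restriction against control: log2 fold change 1.29, adjusted p = 3.10e-04), and Ppp1r15b, a subunit of the opposing phosphatase, from 823 to 1263 (restriction against control: log2 fold change 0.62, adjusted p = 6.95e-05). Eif2ak4, the kinase GCN2 that binds uncharged tRNA, stood in the authors' deposited table at a log2 fold change of 0.16 (adjusted p = 0.701), and its partner Gcn1l1 at -0.17 (adjusted p = 0.467). Among genes that work beside the synthetases on tRNA, Ptrh2, a peptidyl-tRNA hydrolase, fell in the authors' deposited table (-0.56, adjusted p = 0.0329).

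Under the compounds few genes of the whole table were called, and nearly all synthetase genes were without a call as well. Rapamycin had calls for 0 of 36 genes, all with an adjusted p, beside 0.714% of all genes called higher and 0.675% called lower. This count uses the authors' DESeq2 adjusted p, and unadjusted p-values are not in the table used. Over all genes whose mean reached 100, the median log2 fold change under rapamycin was 0.04, and 41.5% lay below 0. Of the 20 cytosolic genes 17 had a log2 fold change above 0 under rapamycin in the authors' deposited table, with a median of 0.11. In the authors' deposited table the largest were Tars (0.41, adjusted p = 0.332) and Wars (0.39, adjusted p = 0.193), and the lowest were Kars (-0.11) and Qars (-0.04). The mitochondrial genes without Lars2 were divided, 7 above and 8 below 0, from -0.44 (Mars2) and -0.32 (Ears2) to 0.13 (Yars2) and 0.18 (Wars2) in the authors' deposited table.

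TM5614 raised a single member, the mitochondrial arginine gene Rars2, beside 2.01% of all genes called higher and 1.95% called lower. Its means were 66.7 in the control, 46.1 under restriction, 72.4 under rapamycin, 80.2 under metformin and 106 under TM5614 in the authors' deposited table. Under TM5614 its log2 fold change in the authors' deposited table was 0.67 (adjusted p = 0.0329), and restriction and TM5614 held the lowest and the highest of the 5 means. The cytosolic arginine gene Rars stood under TM5614 in the authors' deposited table at 0.32 (adjusted p = 0.226) and Wars at 0.40 (adjusted p = 0.0992). Apart from Lars2, the largest values below 0 were those of Sars2 (-0.51, adjusted p = 0.113) and Tars (-0.39, adjusted p = 0.234) in the authors' deposited table, followed by Cars2 (-0.34) and Kars (-0.14) in their classes. Iars (0.39) and Mars2 (0.33) were the next highest of their classes after Wars and Rars2 in the authors' deposited table and did not pass. Cytosolic genes had a median of 0.10 and mitochondrial genes without Lars2 one of 0.05 in the authors' deposited table.

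Metformin had a call for 1 of the 29 members with an adjusted p, Lars2, and for none of the cytosolic genes, beside 0.163% of all genes called higher and 0.0816% called lower. The 7 members without an adjusted p were mitochondrial genes of low mean (Cars2, Ears2, Mars2, Pars2, Rars2, Sars2 and Wars2). Cytosolic medians stayed near 0, at 0.06 in the authors' deposited table, with the largest values for Wars (0.44, adjusted p = 0.291) and Rars (0.35, adjusted p = 0.655) and the lowest for Tars (-0.17) and Kars (-0.15). The mitochondrial extremes without Lars2 were Sars2 (-0.49), Mars2 (-0.19), Pars2 (0.16) and Rars2 (0.27) in the authors' deposited table, all without an adjusted p. Endoplasmic reticulum chaperones fold secreted proteins, and of 17 such genes Hspa5, Hyou1, Creld2 and Manf rose under metformin in the authors' deposited table. Under restriction 8 of the 17 fell and 1 rose, beside 9.24% of all genes called lower and 9.74% called higher. All 4 comparisons share the control, so the small values of Wars above 0 under each compound are not separate observations.

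**Figure D3:**
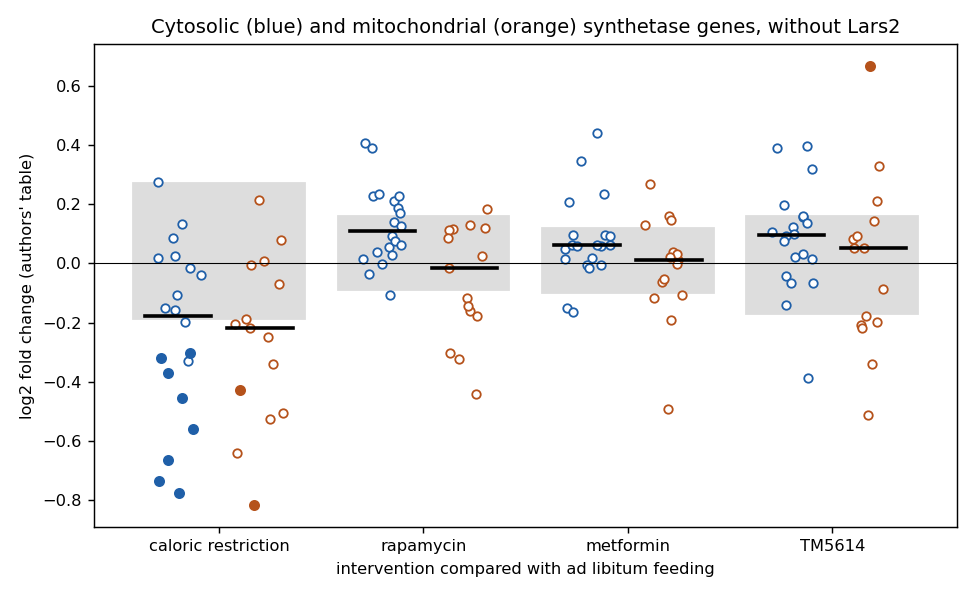
Log2 fold changes of 20 cytosolic (blue) and 15 mitochondrial (orange) synthetase genes in the 4 comparisons of the authors' deposited table, with filled points at an adjusted p under 0.05, black lines at the class medians and grey boxes from the lower to the upper quartile of the 6762 genes whose mean reached 100. The class medians lie at -0.18 and -0.22 under caloric restriction and between -0.02 and 0.11 under the compounds; horizontal scatter within a class is for display.

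Lars2, the mitochondrial leucine enzyme, was set apart in advance because its values in these data followed those of Rn45s, the precursor of ribosomal RNA. The values given here are those behind that choice and are no separate support for it. Its means in the authors' deposited table were 911 in the control, 2559 under restriction, 2368 under rapamycin, 21730 under metformin and 629 under TM5614. Rn45s had 17687, 39519, 44095, 366479 and 10283 normalized counts in the same groups in the authors' deposited table. For every 100 normalized counts of Rn45s there were 5.15 of Lars2 in the control, 6.47 under restriction, 5.37 under rapamycin, 5.93 under metformin and 6.12 under TM5614. The quotient stayed within that band while each of the genes spanned over an order of magnitude, 34.5-fold for Lars2.

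The log2 fold change of Lars2 under metformin in the authors' deposited table was 4.58 (adjusted p = 0.00295) and that of Rn45s was 4.37 (adjusted p = 0.00561). Under rapamycin and restriction Lars2 had 1.38 and 1.49 and did not pass (adjusted p = 0.639 and 0.297) in the authors' deposited table, although its means stood at 259.9% and 281% of the control mean. Iars2, the other mitochondrial gene with the highest level per kilobase, held means of 541 to 584 over the same groups in the authors' deposited table. Lars2 lies on chromosome 9 from 123366927 to 123462666 (mm10), and no other annotated gene shares its exon bases in GENCODE. Whether reads of ribosomal RNA were assigned to Lars2 was not tested.

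**Figure D4:**
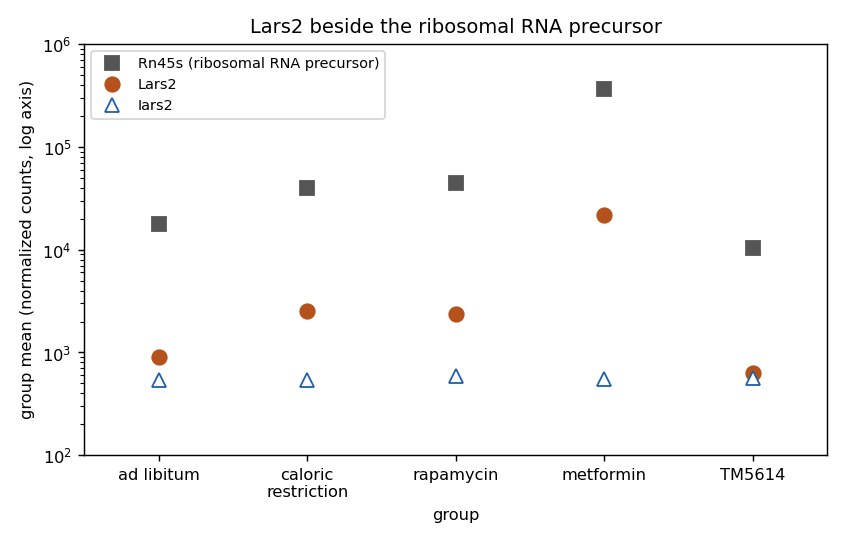
Group means of Lars2 (circles), Rn45s (squares) and Iars2 (triangles) in normalized counts on a log axis, from the authors' deposited table. Lars2 and Rn45s are both highest under metformin (21730 and 366479) and lowest under TM5614 (629 and 10283), while Iars2 stays between 541 and 584.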

How the data were processed

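Whole-liver RNA was isolated after perfusion with phosphate-buffered saline and sequenced from poly(A)-selected libraries, per the labels' protocols. The submitters' processing notes name HISAT2 2.0.5 and mm10. How genes were counted, with which annotation and whether by strand, is not given in the sources used here. All values come from 1 table made with DESeq2 by the authors, as its name states. Its columns are, per the file headers, a normalized signal per group (group means of gene counts divided by size factors) and, for each intervention, the authors' log2 fold change and p-value after adjustment. For the members, the deposited log2 fold changes lay within 0.0153 of the log2 ratio of the group means. Another table holds 18 columns of values per library whose names match no label; none was used, so no model was fitted and no depth, SD or paired fit could be had. The planned protein comparison was not made, and some items are not reported here. Per the design text, the libraries of a group come from separate mice.

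A gene was called at an adjusted p under 0.05 over the whole table. All members may be named; those given in full were called, were the 2 highest or 2 lowest of their class in a comparison, or are Lars2; of other lists up to 4 called genes are named, by smallest adjusted p. Members and lists were chosen with earlier results of these data known, so counts and medians stand beside those of all genes and no test over a list was made. Gene positions and exon lengths come from GENCODE vM21 (mm10), promoters from RefSeq (GRCm38.p6). Counting of calls was tested on simulated data. Python 3.11.15 and pandas 2.3.3 were used. Alternatives were other thresholds, a minimum mean of 100, another scaling, a pseudocount of 1, the mean for the median, and leaving Lars2 in or out.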

Additional observations from a re-analysis of the deposited data

How the results depend on the processing

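The 10 genes lowered by caloric restriction became 5 when a log2 fold change of 0.5 or more in size was also required, and 6 when genes that share exon bases with another gene were left out, an alternative chosen after seeing the data; fewer genes qualify under both by construction. The count was 11 at an adjusted p under 0.1 and 7 at 0.01, with 0 raised under all alternatives run. The single gene raised by TM5614 became 2 at an adjusted p under 0.1 and 0 at 0.01 or with a mean of at least 100, since the mean of Rars2 is lower. The single gene raised by metformin became 0 without Lars2. The cytosolic median under restriction of -0.18 became -0.32 against the mean of the 3 compound groups, also chosen after seeing the data, and -0.27 with the other scaling. Of 38 alternative medians 37 moved by less than 0.1; without a spread between libraries, that size was set by choice. The small medians of the mitochondrial genes under the compounds lay on either side of 0 between alternatives. No paired analysis was possible because the columns with values per library carry no label; for the same reason leaving out single libraries and limma on values per library, with either pseudocount, were not run. Depth per library is unknown, so the change that a gene of low count would need to be called cannot be given.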

Other observations

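Factors that act after tRNA charging were also read under caloric restriction, where 9.74% of all genes were called higher and 9.24% lower. Of 9 cytosolic elongation and release genes 3 rose and none fell in the authors' deposited table: Eef2, the translocase, went from 13200.2 to 18566 normalized counts (restriction against control: log2 fold change 0.49, adjusted p = 2.16e-05), the release factor gene Etf1 had 0.53, adjusted p = 2.59e-05, and Eef1d, a subunit of the exchange factor, had 0.42, adjusted p = 0.0395. Eef1a1, which carries charged tRNA to the ribosome, stood in the authors' deposited table at 0.16 (adjusted p = 0.0874). Of 10 mitochondrial translation factors 3 fell and none rose in the authors' deposited table: the exchange factor gene Tsfm (-0.66), the ribosome recycling factor gene Gfm2 (-0.53) and the initiation factor gene Mtif2 (-0.60), with adjusted p of 0.00231, 0.00254 and 0.00397. Their median was -0.26, and that of the cytosolic factors 0.09. No factor of either list was called under rapamycin, metformin or TM5614, and under metformin 1 cytosolic and 2 mitochondrial factors had no adjusted p; the difference between the compartments was not tested.

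Under TM5614 the amino acid response list held 2 genes that fell in the authors' deposited table, Atf5 (-0.67, adjusted p = 5.16e-04) and Cth, an enzyme of cysteine synthesis (-0.80, adjusted p = 4.72e-04). No synthetase fell there, where only 1.95% of all genes were called lower. Of the 24 genes of that list 19 had a log2 fold change below 0, beside 51.2% of all genes.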
